A study of Rattus norvegicus with 22 samples.

Results

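The DNA replication genes are 38 genes whose products copy the genome in S phase, from the loading of the helicase at origins to the packaging of new DNA into nucleosomes. They were chosen by name: a probe belongs to the set when the gene name in the scanner files is on the list. No measured value enters that rule, but the list was chosen with earlier results of these data known. By that rule 35 of the 38 genes were found, through 40 of the array's 30367 probes. Orc1, Orc6 and Cdc45 stand in the files under older names, were matched through their RefSeq accessions and are given apart from all counts. All 35 passed the filter on dim probes and were among the 23483 genes tested.

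Replication begins when the origin recognition complex, Cdc6 and Cdt1 place the ring of Mcm2 to Mcm7 on DNA. Cdc45, the GINS complex and Mcm10 turn that ring into a working helicase, primase and the polymerases alpha, delta and epsilon make the strands, and the sliding clamp Pcna tethers the polymerases. Most of these genes are transcribed by E2F factors at the entry to S phase, so their messages are widely read as a sign of cells preparing to divide. Cardiomyocytes of the embryonic ventricle still divide, and leave the cell cycle around birth.

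The tissues were engineered cardiac tissues, cylinders of ventricular cells of Sprague Dawley rat embryos (gestational day 14.5) in a matrix, held at both ends by anchors and kept for 7 days in medium with fetal bovine serum. The 4 groups differ in what was done from culture day 5 on: stretch with BIRB796 (4 arrays), BIRB796 alone at 10 µM (4 arrays), cyclic stretch alone at 0.5 Hz and 5% elongation (7 arrays), and control, neither stretched nor treated (7 arrays). BIRB796 inhibits the p38 mitogen-activated protein kinase, as the treatment protocol has it, while the series title speaks of tyrosine kinase. Labels number the replicates without naming separate cultures, litters or animals, so the p-values speak only of how these samples spread, which may be technical. The tissue holds several cell types, and fewer cells of a type cannot be told apart from less RNA per cell.

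Each array was read in 1 colour, and values are log2 signals after each array's 75th percentile was set to 0, here called scaled log2 signal. File headers show 3 scan sessions on 9 slides. Stretch and control replicates 1 to 3 were read in session 1. Stretch replicates 4 to 7 made up session 2, with no other group. Both BIRB796 groups were read in session 3 beside control replicates 4 to 7. Between 65.6% and 73.1% of probes were well above background on the arrays of session 2, against 82.6% to 91.3% in session 1 and 71.4% to 79.9% in session 3. Stretch replicates 4 and 5 differed by less than the noise between repeated spots and were counted as 1 sample. Every one of the 8 cardiomyocyte markers looked at was well above background on at least 1 array of each group in each session. Groups were compared within a session, or with session among the terms of the model. For stretch alone, such a fit takes its difference from the 3 stretch and 3 control arrays of session 1.

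Promoters of 31 of the 35 genes were found in the RefSeq table for assembly GRCr8, each 250 bases before to 50 after the annotated start. The E2F motif was searched as TTTCCCGC, TTTGGCGC, TTTCGCGC or TTTGCCGC on either strand, counting overlapping matches apart. It occurred in 15 of the 31 promoters (48.4%) and in 716 of all 33469 (2.14%). The CCAAT box, searched as CCAAT on either strand, was in 18 of the 31 (58.1%) against 37.5% of all promoters, and the TATA box, searched as TATAAA on either strand, in 0 of 31 against 14.2%. The windows below run from 170 bases before to 30 after the start of the 6 genes on which the results turn most, written 5' to 3' on the gene's strand with E2F matches in capitals.
Gins3: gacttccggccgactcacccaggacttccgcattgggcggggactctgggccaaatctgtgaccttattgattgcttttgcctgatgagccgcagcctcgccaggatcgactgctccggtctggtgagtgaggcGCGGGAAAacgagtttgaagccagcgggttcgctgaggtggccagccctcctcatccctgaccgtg
Tyms: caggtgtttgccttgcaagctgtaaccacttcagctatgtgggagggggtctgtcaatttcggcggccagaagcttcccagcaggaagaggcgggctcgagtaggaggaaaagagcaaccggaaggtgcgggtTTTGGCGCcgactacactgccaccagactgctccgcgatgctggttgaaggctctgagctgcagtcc
Pole2: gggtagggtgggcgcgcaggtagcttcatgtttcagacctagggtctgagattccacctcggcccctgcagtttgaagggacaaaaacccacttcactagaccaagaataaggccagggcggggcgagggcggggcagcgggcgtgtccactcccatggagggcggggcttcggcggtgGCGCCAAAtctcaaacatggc
Mcm2: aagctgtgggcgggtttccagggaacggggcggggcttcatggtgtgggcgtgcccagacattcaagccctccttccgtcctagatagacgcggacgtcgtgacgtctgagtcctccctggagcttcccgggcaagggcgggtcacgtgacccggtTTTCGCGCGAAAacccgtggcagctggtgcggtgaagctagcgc
Mcm10: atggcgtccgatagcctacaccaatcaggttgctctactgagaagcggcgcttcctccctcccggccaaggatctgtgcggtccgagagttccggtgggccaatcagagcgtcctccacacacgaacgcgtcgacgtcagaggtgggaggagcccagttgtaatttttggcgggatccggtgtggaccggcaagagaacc
Pold1: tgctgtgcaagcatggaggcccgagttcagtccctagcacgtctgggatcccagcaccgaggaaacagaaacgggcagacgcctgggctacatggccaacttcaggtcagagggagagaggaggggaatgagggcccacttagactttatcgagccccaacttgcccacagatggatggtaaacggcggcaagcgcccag
The Gins3 window is chr19:9434650-9434849 on the minus strand. The Tyms window is chr9:120776054-120776253 on the minus strand. The Pole2 window is chr6:93435332-93435531 on the minus strand. The Mcm2 window is chr4:122918065-122918264 on the minus strand. The Mcm10 window is chr17:78175217-78175416 on the plus strand. The Pold1 window is chr1:104172953-104173152 on the minus strand. Gins3, Tyms and Pole2 hold 1 match each in the window, and Mcm2 holds 2 that overlap. Mcm10 and Pold1 hold none of these letters in it, which says nothing of whether E2F binds there. The 6 promoters therefore do not share this motif.

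The median spread between replicates was smaller for the members than over all genes. Members were also brighter, with a median scaled log2 signal of 0.41 against -2.49 over all genes tested. Of the 35, 28 lay above that median, and the part of brightness in the spread was not tested. Of the 35, 33 were well above background on all 22 arrays. The exceptions were Pola1, below background on stretch replicate 7 alone, and Gins3, below background on all 4 arrays of session 2. The standard deviation between the replicates of a group within a session had a median over members of 0.127 in stretch with BIRB796, 0.153 in BIRB796 and 0.0922 in control of session 3, against 0.181, 0.203 and 0.185 over all genes. In session 1 it was 0.213 in stretch and 0.155 in control, against 0.352 and 0.255 over all genes. The 3 stretch samples of session 2 spread most, with a median of 0.413 for members and 0.585 for all genes. Session 2 holds no array of another group, so its arrays were set against other groups only in alternative fits that join it to other sessions. In the fit to all sessions their spread still entered the standard error, p-value and interval of each gene in every comparison. For BIRB796 against control the median half-width of a member's confidence interval was 0.354 in that fit. In session 3 alone, without the arrays of sessions 1 and 2, it was 0.209.

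Cyclic stretch without BIRB796 left the replication genes near the control level. None of the 35 was called in limma with Benjamini-Hochberg adjustment over all genes (0% of all genes tested were called), and 2 had an unadjusted p under 0.05, against 3.2% of all genes. The fitted differences had a median of -0.10 on the log2 scale, with 13 above and 22 below 0, beside a median of 0.08 over all genes. With session 1 alone 0 members were called too, among 0% of all genes. The lowest was -0.54 for Pole2 and the highest 0.14 for Gins3. With all sessions the 95% confidence interval lay within 1 log2 unit of 0 for 33 of the 35 genes and within 0.5 for 13. With session 1 alone it did so for 32 and 6. For most members a change of 1 log2 unit thus falls outside the interval.

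**Figure D1:**
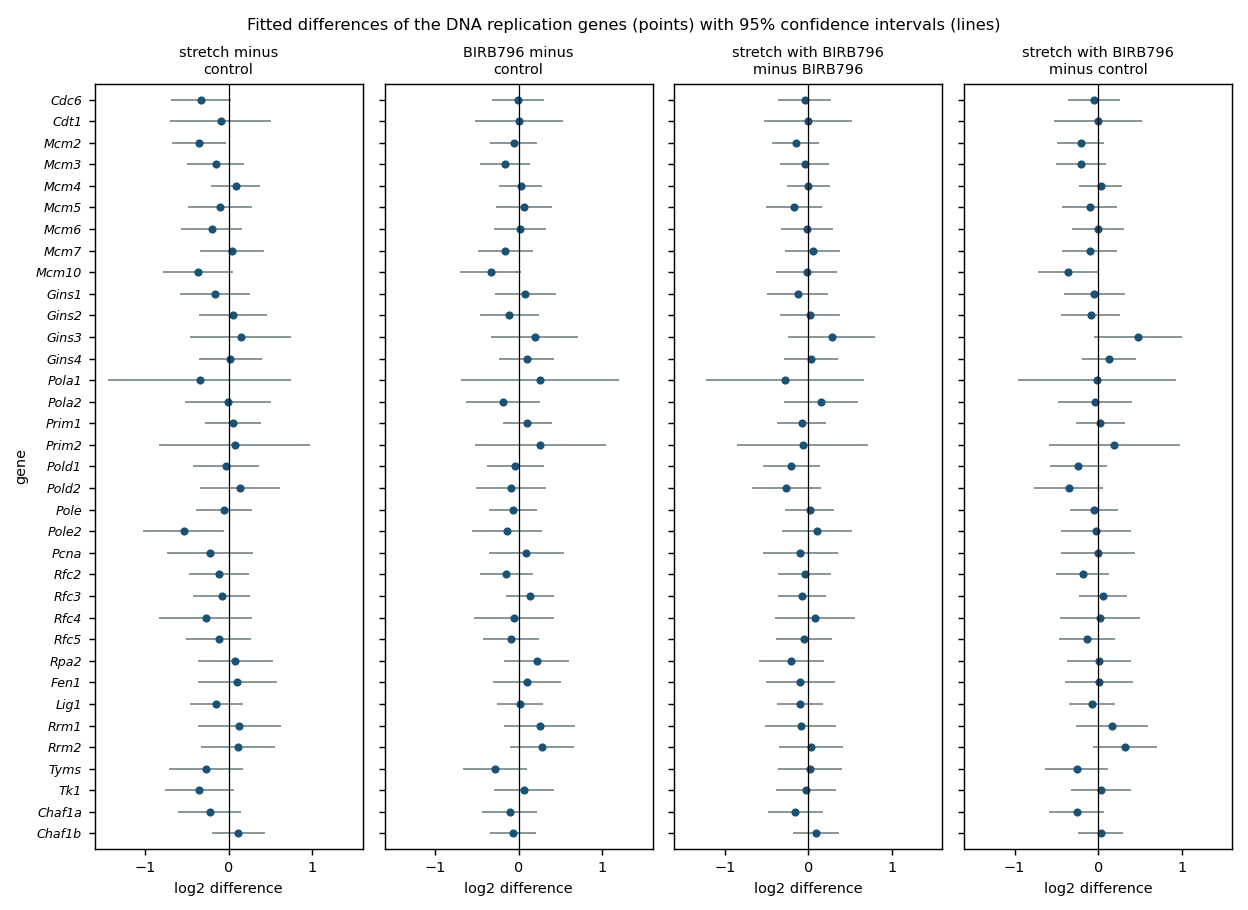
Fitted log2 differences (points, x axis) of the 35 replication genes (rows) with 95% confidence intervals (lines) in 4 comparisons. Most points lie within 0.5 of 0, and the widest intervals are those of Pola1 and Prim2.

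Among the licensing and helicase-loading genes, 6 of 8 lay below 0, with a median of -0.13. Mcm2, a subunit of the helicase ring, had scaled log2 signals of 0.76, 0.95 and 0.46 in the stretch arrays of session 1, against 1.04, 1.11 and 1.07 in the control arrays. On the probes that stand for the genes, it was the only member whose session 1 groups did not overlap. Over all genes 3.51% were lower, 5.8% higher and 9.3% in either direction without overlap. The fitted difference of Mcm2 was -0.35 ± 0.15 (SE, limma, adjusted p 1.00), and within slides 1, 2 and 3 it was -0.29, -0.16 and -0.62. A second Mcm2 probe gave -0.09 ± 0.17. On it the groups overlapped, at -1.84, -1.68 and -1.94 in stretch and -1.73, -1.70 and -1.76 in control. Cdc6, which helps to load the ring, had -2.16, -1.80 and -2.17 in stretch and -1.54, -1.82 and -1.78 in control. Its difference was -0.33 ± 0.17 (adjusted p 1.00 in limma), and the groups overlapped. Mcm5, another ring subunit, differed by -0.11 ± 0.18. Mcm3 had -0.15 ± 0.16 on the probe that stands for it and -0.44 ± 0.18 on a second one.

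The polymerase and primase genes were divided, 3 above and 5 below 0. Pole2, the accessory subunit of polymerase epsilon, had -3.88, -3.76 and -3.93 in stretch, against -3.09, -3.91 and -2.97 in control. Stretch arrays lay at the level of the lowest control array, and the 2 other control arrays were higher. Its difference of -0.54 ± 0.23 was not called (limma, adjusted p 1.00), and was -0.79, 0.15 and -0.97 within slides 1, 2 and 3. With a term that only sets session 1 apart from the others, Pole2 was the 1 member called, lower, among 3.72% of all genes that were lower. In sessions 2 and 3 alone, where stretch and scan session cannot be told apart, 4 members were lower (Pole2, Pola1, Gins3 and Rfc4) among 11.4% of all genes. Pola1, the catalytic subunit of polymerase alpha, differed by -0.35 ± 0.52 with the widest interval of any member.

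In the remaining roles differences lay on both sides of 0, and none was called. Pcna differed by -0.22 ± 0.24, the ligase Lig1 by -0.15 ± 0.15, the ribonucleotide reductase subunit Rrm2 by 0.11 ± 0.21 and the nucleosome assembly subunit Chaf1b by 0.12 ± 0.15. In the helicase-activation group 3 of 5 lay above 0, although Mcm10 stood at -0.36 ± 0.20. Of the 3 genes matched by accession, Cdc45 differed by 0.05 ± 0.17, Orc1 by -0.08 ± 0.22 and Orc6 by 0.18 ± 0.24. None was called, although the session 1 arrays of Orc6 did not overlap.

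Without stretch replicate 3 the median over the 35 genes was 0.00, against -0.10 with it. Stretch replicate 3 held the lowest of the 6 session 1 values for 19 of the 35 genes, a place it held for 32.7% of all genes. Control replicate 3, on the same slide, held the highest for 13 of 35, against 10.2% of all genes. As a median over the 35 genes, the stretch arrays deviated from the mean control by -0.02, 0.01 and -0.21, and the control arrays by 0.06, -0.13 and 0.07. The median difference within slides 1, 2 and 3 was -0.09, 0.14 and -0.30, with 19, 9 and 28 of the 35 genes below 0. The slides did not share a direction. In session 1 the summed signal of 6 macrophage markers was 13.2 to 21.2 in stretch and 21.1 to 40.3 in control arrays, and the part of cell makeup in these values was not tested.

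**Figure D2:**
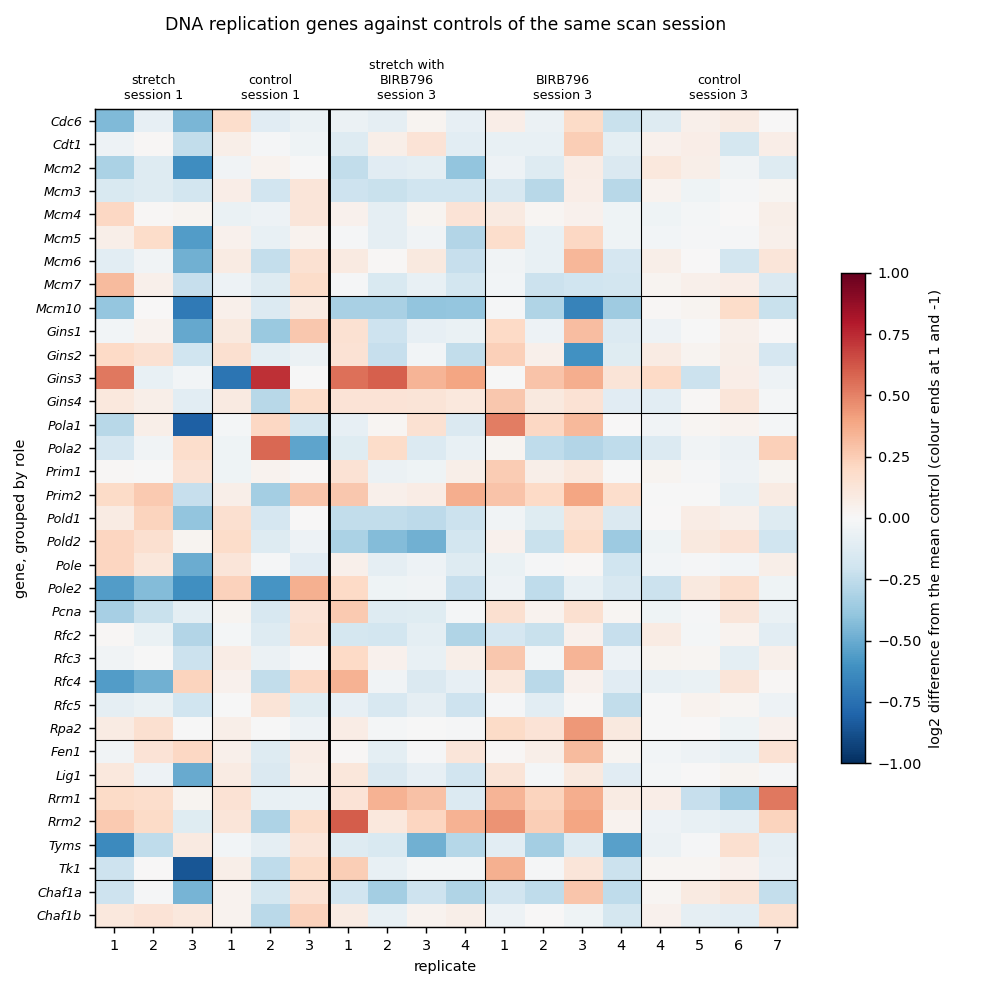
Each cell is a gene's scaled log2 signal in an array minus the mean of the control arrays of the same session, for stretch and control of session 1 (left of the thick line) and stretch with BIRB796, BIRB796 and control of session 3 (right of it). Thin horizontal lines part the roles. Stretch replicate 3 of session 1 is blue for many genes, Mcm10 and Pold1 are blue in all 4 arrays of stretch with BIRB796, and Gins3 is red there.

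With BIRB796 alone the replication genes lay evenly on both sides of the control level. Their fitted differences from control had a median of 0.00, with 18 above and 17 below 0, beside a median of 0.01 over all genes. No member was called in the fit to all sessions (limma, 0% of all genes tested). There 0 members had an unadjusted p under 0.05, against 6.57% of all genes. The range ran from -0.33 for Mcm10 to 0.28 for Rrm2. Both groups lie in session 3, but only slide 6 held both, with 1 array of each. BIRB796 replicates 2 to 4 were on slide 9 without a control, so slide and BIRB796 cannot be fully told apart. A fit to session 3 alone called 1.95% of all genes but none of the 35. In that fit the 95% confidence interval lay within 0.5 log2 units of 0 for 31 of the 35 genes, against 46.8% of all genes, and within 1 for all 35. In the fit to all sessions it lay within 0.5 for 20, against 23.2% of all genes, and within 1 for 33.

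Mcm10, which helps to fire the helicase, had -1.79, -2.08, -2.44 and -2.13 in BIRB796, against -1.77, -1.75, -1.59 and -2.0 in control. The difference was -0.33 ± 0.17 (adjusted p 0.84 in limma). BIRB796 replicate 1 lay among the controls and the other 3 below all of them. Rrm2 had 4.24, 4.04, 4.19 and 3.83 in BIRB796 and 3.74, 3.71, 3.70 and 4.01 in control, a difference of 0.28 ± 0.18 (limma, adjusted p 0.96). Tyms, the thymidylate synthase that makes thymidine nucleotides, had -1.65, -1.88, -1.67 and -2.08 in BIRB796 and -1.6, -1.55, -1.38 and -1.63 in control. Its groups narrowly did not overlap, and the difference was -0.28 ± 0.18 (limma, adjusted p 0.96). Within slide 6, with 1 array of each group, the difference was -0.02 for Mcm10, 0.50 for Rrm2 and -0.05 for Tyms. With array weights and a mean-variance trend, Mcm10 and Tyms were called lower, 2 of 35, among 5.59% of all genes. Enzymes of nucleotide supply stood on both sides of 0.

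Besides Tyms, 2 members did not overlap between the groups. Rpa2, a subunit of the complex that covers single-stranded DNA, had 1.44, 1.39, 1.69 and 1.35 in BIRB796, against 1.25, 1.26, 1.21 and 1.30 in control (0.21 ± 0.18). Prim2, the large primase subunit, had 1.36, 1.28, 1.47 and 1.25 in BIRB796, against 1.07, 1.08, 1.01 and 1.16 in control (0.26 ± 0.37). All 4 treated arrays were thus above all 4 controls for both genes. The SE of Prim2 is from the fit to all sessions, which includes stretch of session 2. The standard deviation of Prim2 was 1.44 in that group, against 0.0996 in BIRB796 and 0.0638 in control of session 3. Over all genes 6.6% were higher and 5.29% lower without overlap, 11.9% in all, so the 3 of 35 are no larger a share than the background.

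Of the members given for each role, Cdc6 differed by -0.00 ± 0.15, Mcm5 by 0.07 ± 0.16, Pola1 by 0.26 ± 0.45, Pcna by 0.09 ± 0.21, Lig1 by 0.02 ± 0.13 and Chaf1b by -0.07 ± 0.13. Licensing genes were split 4 to 4, with a median of -0.00, and the deoxynucleotide genes 3 to 1. Cdc45 differed by 0.22 ± 0.14, Orc1 by -0.06 ± 0.19 and Orc6 by -0.16 ± 0.21. BIRB796 replicate 3 held the highest of the 12 session 3 values for 13 of the 35 genes, against 12.5% of all genes. The 4 BIRB796 arrays deviated from the mean control by 0.04, -0.05, 0.14 and -0.13 as a median over the genes, in both directions.

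Stretch on top of BIRB796 gave differences of at most 0.28 in size. Between stretch with BIRB796 and BIRB796 alone the median difference was -0.05, with 11 above and 24 below 0, beside 0.01 over all genes. None was called in limma with all sessions (0% of all genes tested). In that fit 0 had an unadjusted p under 0.05, against 1.81% of all genes. In session 3 alone 0.0468% of all genes were called, none of them a member. The interval in that fit lay within 0.5 of 0 for 32 of the 35, and in the fit to all sessions for 21.

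Pold2 and Pold1, the accessory and catalytic subunits of polymerase delta, stood lowest by p. Pold2 had 2.06, 1.94, 1.90 and 2.19 in stretch with BIRB796 and 2.42, 2.15, 2.56 and 2.01 in BIRB796, overlapping, with a difference of -0.26 ± 0.20. Pold1 had 1.04, 1.05, 1.03 and 1.07 in stretch with BIRB796, against 1.26, 1.17, 1.44 and 1.15 in BIRB796. All 4 doubly treated arrays lay below the others, and the difference was -0.20 ± 0.16. Mcm2 differed by -0.15 ± 0.13. In limma the adjusted p was 1.00 for each of the 3 genes.

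Rpa2 also did not overlap, at 1.33, 1.23, 1.25 and 1.24 in stretch with BIRB796 against 1.44, 1.39, 1.69 and 1.35 in BIRB796. That makes 2 of 35 lower without overlap, where 2.52% of all genes were lower, 2.86% higher and 5.37% either. Among the other genes given for each role, Cdc6 was at -0.05 ± 0.15, Mcm5 at -0.17 ± 0.16, Pcna at -0.10 ± 0.21, Lig1 at -0.10 ± 0.13, Rrm2 at 0.03 ± 0.18 and Chaf1b at 0.09 ± 0.13. Pola1 was at -0.28 ± 0.45, Cdc45 at -0.08 ± 0.14, Orc1 at 0.01 ± 0.19 and Orc6 at 0.12 ± 0.21. Licensing genes lay below 0 in 7 of 8, by at most 0.17.

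Set against control, stretch with BIRB796 gave the single member called within a session. It shares its control arrays with the BIRB796 comparison. In the fit to all sessions no member was called (limma, 0.0979% of all genes were), and 0 had an unadjusted p under 0.05, against 9.59% of all genes. The median was -0.03, with 13 above and 22 below 0, beside 0.04 over all genes. In session 3 alone the unadjusted p (limma) was under 0.05 for uncalled members too, among them Mcm10 (0.019), Mcm3 (0.025) and Mcm2 (0.037), each lower. That fit called 1 of the 35, against 7.57% of all genes, of which 3.1% were higher and 4.47% lower.

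That member was Gins3, a subunit of the GINS complex that binds the helicase. It had -6.35, -6.30, -6.57 and -6.50 in stretch with BIRB796, against -6.70, -7.12, -6.84 and -6.95 in control. The doubly treated arrays were all above the controls, and the BIRB796 arrays, at -6.90, -6.62, -6.54 and -6.77, lay between and overlapped both. The difference was 0.47 ± 0.11 in session 3 alone (limma, adjusted p 0.034) and 0.47 ± 0.25 with all sessions (adjusted p 0.60), a ratio of 1.39. Within slide 6 it was 0.35 and within slide 8 it was 0.52. Its call in session 3 alone was lost when any 1 of the 4 doubly treated arrays, control replicate 4, 5 or 6, or BIRB796 replicate 4 was left out. Its probe, on chr19:9878303-9878362 of build rn4, was dim: control arrays averaged -4.63 ± 0.73 (SD, n = 3) in session 1 and -6.90 ± 0.18 (SD, n = 4) in session 3. The shift of 2.27 between sessions is several times the difference between groups. The other GINS genes differed by -0.05 ± 0.17 (Gins1), -0.09 ± 0.17 (Gins2) and 0.13 ± 0.15 (Gins4) with all sessions, and none was called.

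**Figure D3:**
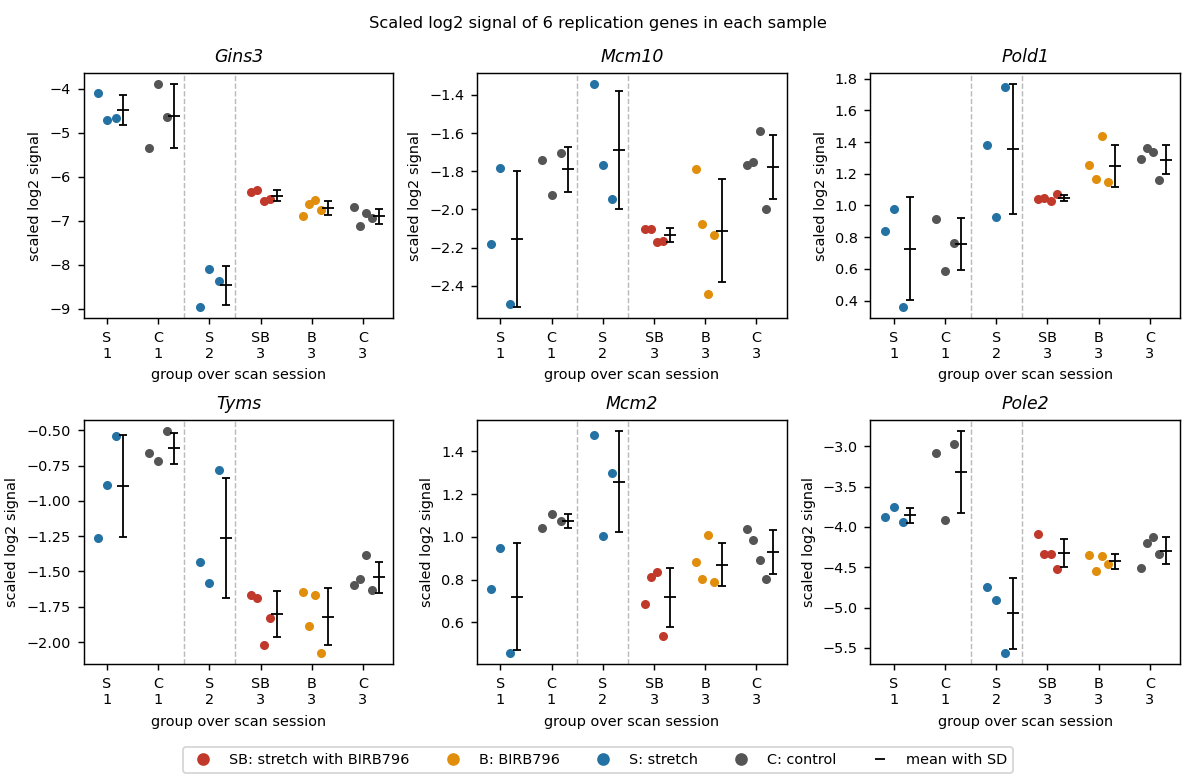
Scaled log2 signal (y axis) of 6 replication genes in each sample, by group and scan session (x axis), with the mean and SD beside the points. Gins3 falls into separate levels by session, from about -4.6 in session 1 controls to -6.9 in session 3 controls, and within session 3 its stretch with BIRB796 samples lie above the controls.

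On the lower side, 5 members did not overlap with control: Mcm10, Pold1, Tyms, Mcm3 and Rfc5. With Gins3 that makes 6 of 35, where 8.65% of all genes were higher and 8.39% lower, 17% in all. Mcm10 had -2.10, -2.10, -2.17 and -2.16 in stretch with BIRB796, all below the control arrays, with a difference of -0.36 ± 0.17 (adjusted p 0.53 in limma). The values of Pold1 given above lay below its control values of 1.30, 1.36, 1.34 and 1.16, with a difference of -0.24 ± 0.16 (limma, adjusted p 0.77). Tyms had -1.67, -1.69, -2.02 and -1.83, a difference of -0.26 ± 0.18. Mcm3, of the helicase ring, had 2.15, 2.14, 2.16 and 2.16, against 2.40, 2.32, 2.35 and 2.38 in control (-0.21 ± 0.14). Rfc5, of the clamp loader, differed by -0.14 ± 0.16. None of the 5 was called with all sessions or in session 3 alone. With array weights and a trend 4 members were called lower (Mcm10, Pold1, Pold2 and Chaf1a), among 9.21% of all genes.

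The 3 members with the smallest p over all sessions were Mcm10, Gins3 and Pold2. Pold2 differed by -0.35 ± 0.20 (limma, adjusted p 0.64) and overlapped with control, whose arrays had 2.34, 2.48, 2.51 and 2.17. A second, dim Mcm10 probe gave -0.10 ± 0.19, and the second Mcm2 probe gave 0.11 ± 0.14 where the first gave -0.21 ± 0.13. Rrm2 was at 0.32 ± 0.18 and its second probe at 0.23 ± 0.18. Cdc6 was at -0.05 ± 0.15, Mcm5 at -0.11 ± 0.16, Pola1 at -0.02 ± 0.45, Pcna at -0.00 ± 0.21, Lig1 at -0.08 ± 0.13 and Chaf1b at 0.03 ± 0.13. Cdc45 differed by 0.14 ± 0.14, Orc1 by -0.05 ± 0.19 and Orc6 by -0.04 ± 0.21. Licensing genes lay below 0 in 7 of 8, and polymerase and primase genes in 6 of 8.

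Stretch with BIRB796 and stretch alone share no session, so their comparison runs through the controls of both. None of the 35 was called in limma (0% of all genes), 0 had an unadjusted p under 0.05, against 2.4% of all genes, and the median was 0.01 beside -0.03 over all genes. Pole2 differed by 0.51 ± 0.30, Pold2 by -0.49 ± 0.30 and Tk1, the thymidine kinase, by 0.38 ± 0.26, each with an adjusted p of 1.00. The interval lay within 1 log2 unit for 29 of the 35. Cdc6 was at 0.28 ± 0.23, Mcm5 at -0.00 ± 0.24, Pola1 at 0.33 ± 0.69, Pcna at 0.22 ± 0.32, Lig1 at 0.07 ± 0.20, Rrm2 at 0.21 ± 0.28, Chaf1b at -0.09 ± 0.20 and Cdc45 at 0.10 ± 0.22. With the term that only sets session 1 apart, 1 member was called (Gins3, higher) among 0.626% of all genes higher. Sessions 2 and 3 alone called 5 (Gins3, Pola1, Pole2 and Rfc4 higher, Mcm2 lower) among 16.1%, with the session and stretch inseparable.

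Whether stretch acted differently with BIRB796 than without was tested as the difference of the 2 stretch effects. No member was called in limma (0% of all genes), and 1 had an unadjusted p under 0.05, against 1.29% of all genes. That gene was Pole2, at 0.64 ± 0.30 (limma, adjusted p 1.00), followed by Pold2 at -0.40 ± 0.30 and Mcm10 at 0.34 ± 0.26. The median was 0.07, beside -0.05 over all genes. Cdc6 was at 0.28 ± 0.23, Mcm5 at -0.07 ± 0.24, Pola1 at 0.07 ± 0.69, Pcna at 0.12 ± 0.32, Lig1 at 0.05 ± 0.20, Rrm2 at -0.08 ± 0.28, Chaf1b at -0.02 ± 0.20 and Cdc45 at -0.13 ± 0.22. Sessions 2 and 3 alone called 1 member, Gins3, higher, among 2.81% of all genes. The interval lay within 0.5 of 0 for 4 of the 35 and within 1 for 30, where the comparison of stretch with BIRB796 with stretch alone had 4 and 29.

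Mitosis genes, read from a list of 30 of which 27 were tested, lay to one side of control in both BIRB796 groups. In BIRB796 against control all 27 lay above 0, with a median of 0.27, although none was called (limma, smallest adjusted p 0.54). Within session 3 the groups did not overlap, all higher, for 11 of the 27, where 6.6% of all genes were higher without overlap. In stretch with BIRB796 against control 26 of 27 lay above 0, with a median of 0.24, and 14 did not overlap, all higher, where 8.65% of all genes were. None was called there either (limma, smallest adjusted p 0.32). Top2a, the topoisomerase of dividing cells, differed by 0.29 ± 0.16 in BIRB796 and 0.11 ± 0.16 in stretch with BIRB796. The array medians over the list were 0.52, 0.11, 0.15 and 0.16 in stretch with BIRB796, 0.55, 0.19, 0.31 and 0.05 in BIRB796, and -0.03 to 0.01 in control. Every treated array was above every control array of session 3, the closest being BIRB796 replicate 4 at 0.05. Each deviation is taken from the mean of these same controls, which holds the control medians near 0. BIRB796 replicates 2 to 4 were on slide 9, which held no control. For the replication genes, treated arrays lay on both sides of the controls, which had -0.01 to 0.03. The difference between the lists was not tested. In stretch against control 25 of 27 mitosis genes lay below 0, with a median of -0.20, and the array medians were -0.08, 0.12 and -0.66 in stretch and 0.11, -0.24 and 0.13 in control, so that the arrays overlapped and stretch replicate 3 lay lowest.

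**Figure D4:**
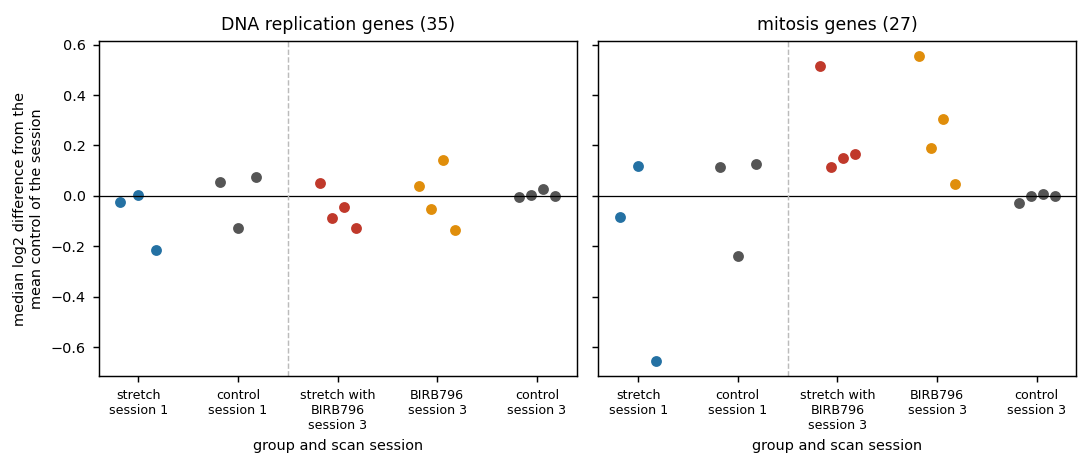
Median over the 35 replication genes (left) and the 27 mitosis genes (right) of each array's log2 difference from the mean control of its session (y axis), by group and session (x axis). Replication medians lie between -0.21 and 0.14, and mitosis medians of all 8 arrays with BIRB796 lie above the session 3 controls.

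A further 35 tested replication factors, such as remaining polymerases, checkpoint and origin proteins, had medians of -0.07 in stretch, 0.03 in BIRB796 and -0.02 in stretch with BIRB796, each against control. None was called with all sessions. In session 3 alone 1 of them was, Timeless, a factor that travels with the fork, at -0.54 (limma, adjusted p 0.041) in BIRB796 and -0.52 (adjusted p 0.025) in stretch with BIRB796. That fit called 1.95% of all genes in BIRB796 and 7.57% in stretch with BIRB796 against control, so 1 of 35 is a share near or below the background. Among 29 tested regulators of the step from G1 to S, session 3 alone called Mycn in both comparisons, at -1.34 (limma, adjusted p 0.033) in BIRB796 and -1.11 (adjusted p 0.027) in stretch with BIRB796, and Cdkn1c, an inhibitor of cyclin-dependent kinases, at -0.76 (adjusted p 0.048) in the second. These counts, 1 and 2 of 29, are likewise near the shares of all genes called. In stretch against control Timeless stood at -0.67 ± 0.21 (limma, adjusted p 1.00). E2f1, which drives many replication genes, differed by 0.20 ± 0.14 in BIRB796, -0.28 ± 0.14 in stretch with BIRB796 against BIRB796, and -0.21 ± 0.16 in stretch, and was not called. Ccnd1, the G1 cyclin, was at -0.28 ± 0.14 in BIRB796 against control. Ccne1, Ccne2 and the inhibitor Cdkn1a were at -0.09 ± 0.15, -0.27 ± 0.22 and 0.02 ± 0.33 there.

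Markers of other cell types differed between the groups of session 3. The summed signal of 6 smooth muscle and pericyte markers was 57.0 to 116 in stretch with BIRB796, 59.8 to 101 in BIRB796 and 26.4 to 42.3 in control. For 7 endothelial markers it was 1.79 to 2.67 in stretch with BIRB796, 2.59 to 3.22 in BIRB796 and 3.62 to 5.16 in control. For 6 mesothelial markers it was 5.12 to 9.28 in stretch with BIRB796, 4.81 to 11 in BIRB796 and 10.3 to 15.9 in control. Smooth muscle sums were thus higher in both BIRB796 groups than in control, and endothelial sums lower. Taken singly, all 6 smooth muscle markers were higher than control without overlap in both BIRB796 groups. Of the 7 endothelial markers, 1 was lower without overlap in BIRB796 and 4 in stretch with BIRB796. For the 6 mesothelial markers these counts were 3 and 4, and for the 6 macrophage markers tested 0 and 5. Over all genes 6.6% were higher and 5.29% lower in BIRB796, and 8.65% and 8.39% in stretch with BIRB796. The 6 macrophage markers tested, of 7, summed to 24.1 to 27.2 in stretch with BIRB796, 30.5 to 40.2 in BIRB796 and 27.4 to 67.9 in control. No marker of these lists was below background on every array of a group. The part of cell makeup in Gins3, Mcm10 or the mitosis genes was not tested.

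Control arrays differed between sessions. Between session 1 and session 3 controls the size of the difference had a median of 0.27 over the 35 genes and 0.55 over all genes. It was 2.27 for Gins3, 0.97 for Pole2, 0.91 for Tyms and -0.68 for Pold2. No label says whether tissues of different sessions were made together, and the cause of these shifts was not tested. A second Mcm4 probe marked the sessions most sharply. It was well above background on all 6 arrays of session 1, at -3.46 to -2.57, and on 0 of the 16 others, at -9.80 to -7.37. The probe that stands for Mcm4, on chr11:87183282-87183341 of rn4, was above background on all arrays, at 1.43 to 1.70 in session 1 and 1.70 to 2.31 in the others. The second probe lies on chr11:87182084-87182143, on the same chromosome and at lower coordinates. Neither probe gave a called difference between groups.

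**Figure D5:**
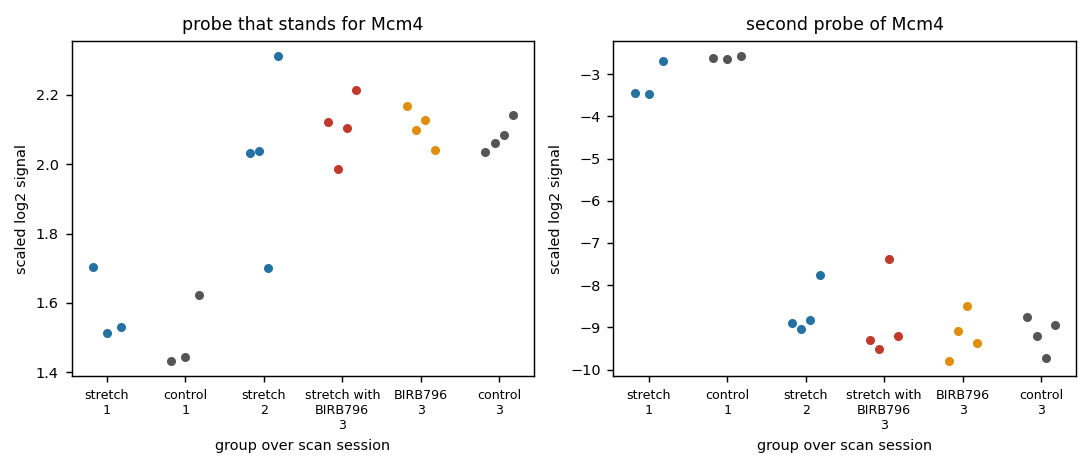
Scaled log2 signal (y axis, separate scales) of 2 probes of Mcm4 on each of the 22 arrays by group and scan session (x axis). The second probe sits above -3.5 on the session 1 arrays and below -7 on all others, in stretch and control alike.

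In session 2 the stretch arrays without a control showed how far single samples could stray. Stretch replicate 7, the dimmest array, held the highest of the 3 session 2 values for 23 of the 35 genes, against 55.9% of all genes. It had -7.36 for Pola1, below background, where stretch replicates 4, 5 and 6 had -4.31, -4.15 and -4.43. Prim2 had -1.52 there and 0.92, 0.94 and 1.02 in the same other replicates. For Fen1, the nuclease that trims Okazaki fragments, it had 4.07, against 3.02, 3.03 and 2.83, so the array was far to either side depending on the gene. Stretch replicate 6 held the lowest value for 19 of 35, against 33.4% of all genes. Gins3 had -8.30, -9.62, -8.09 and -8.37 in stretch replicates 4 to 7, none well above background.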

How the data were processed

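Labels give 22 arrays of Cy3-labelled total RNA in 4 groups. Per the file headers, the intensity of each spot is linear and was background-subtracted within its array by Agilent Feature Extraction (versions 10.7.1.1, 10.7.3.1 and 11.0.1.1), with coordinates on build rn4. A log2 table of 27873 probes from the authors has an unstated centring. With each probe centred, all 22 columns matched their own array better than any other, and column medians ran from -0.11 to 0.40. It served as an alternative. No interval from counting applies to arrays, whose number limits the precision.

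Control spots and outlier-flagged spots were left out, processed signals were taken to log2, spots of a probe averaged and each array's 75th percentile subtracted. The 26888 probes that exceeded background clearly on 4 arrays or more entered, and the probe with the highest mean stood for a gene name. Of 30367 probes, 17998 were named by accession, 2359 by symbol and 615 by synonym in a RefSeq table of assembly GRCr8, and 9395 kept the file's name. limma 3.58.1 in R 4.3.3 fitted 21 samples in 4 groups with scan session as a term, with Benjamini-Hochberg adjustment over 23483 genes, two-sided, called at an adjusted p under 0.05. The fit was run on simulated data with the same spread of a gene on every array, and only its mean estimates were checked. The calls were not checked under the wider spread of session 2. Fits within session 1 or session 3 were alternatives, as were other scalings, filters, batch terms and left-out arrays. Normexp used the median spot signal, since the mean was present for session 2 alone.

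Members, lists and contrasts were chosen with earlier results of these data known. Named are members that were called, otherwise the 3 with the smallest p, and 1 per role (Cdc6, Mcm5, Cdc45, Pola1, Pcna, Lig1, Rrm2 and Chaf1b). Members without overlap between groups, and the values of session 2, were named after their values were seen. Same-numbered stretch and control arrays of session 1, which share slides, deviated over genes with r = 0.51, 0.15 and 0.57. The best r with another number was 0.22, 0.30 and -0.23, so pair 2 did not stand out. For stretch with BIRB796 and BIRB796 the r was 0.53, 0.01, 0.08 and 0.08, against -0.18, 0.15, 0.17 and 0.12 with another number. There only pair 1 stood out. The lists of mitosis genes, other replication factors, regulators of G1 to S and cell type markers are described by counts and medians only. Fibroblast and erythroid markers gave medians of -0.12 and -0.21 in BIRB796 against control, and cardiomyocyte markers -0.02, with none called.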

Additional observations from a re-analysis of the deposited data

Results flagged for a closer look

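Among the named genes, 6 of 64 groups held a sample far from the rest by the gap to its nearest neighbour over the range of the group. Chance alone gives about 1 in 20 for independent groups. These groups are the same arrays read for several genes, so their share cannot be judged against that rate. Stretch replicate 7, the dimmest array, stood apart for Pola1, at -7.36 with the next stretch sample at -4.43, and for Pold2, at 2.84 with the next at 2.03. Stretch with BIRB796 replicate 1 was the highest of its group for Cdc45, at 2.08 with the next at 1.85, and for Tk1, at 1.76 with the next at 1.5. Control replicate 2 was the lowest control for Lig1, at 2.41 with the next at 2.62, and for Rrm2, at 3.26 with the next at 3.69. The stretch and control groups span sessions, whose part in these gaps was not tested.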

How the results depend on the processing

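Of 2797 recomputed values of named genes, 2782 kept their side of the threshold, 15 became called, and 146 had another sign while uncalled in both fits. No member was called in any comparison when 1 array was left out of the fit to all sessions (0 in each of 22 such fits), nor under other scalings, filters, probe rules, the authors' table, no batch term or slide as a random block. The array set term, which joins sessions 2 and 3, called 1 member in stretch minus control (Pole2, lower) and 1 in stretch with BIRB796 minus stretch (Gins3, higher), among 3.72% of all genes lower and 0.626% higher. Array weights with a trend called 2 in BIRB796 minus control (Mcm10 and Tyms, lower) and 4 in stretch with BIRB796 minus control (Mcm10, Pold1, Pold2 and Chaf1a, lower), among 5.59% and 9.21% of all genes lower. Session 3 alone called 1 in stretch with BIRB796 minus control (Gins3, higher), as it did with slide as a random block. These fits called 1777 and 1669 of the 23483 genes tested. Leaving out an array of session 3 gave 0 to 3. Gins3 alone was called without BIRB796 replicate 1 or 2, among 1718 and 1210 of all genes. Without control replicate 7 Gins3 and Pold1 were called, among 3801 of all genes. Without BIRB796 replicate 3 Gins3, Pold1 and Mcm3 were called, among 1887. Sessions 2 and 3 alone without a batch term, where session and stretch cannot be told apart, called 4 in stretch minus control, 5 in stretch with BIRB796 minus stretch and 1 in the difference of stretch effects, with medians of 0.090, -0.17 and -0.18. The causes of these changes were not tested.

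Leaving out 1 array moved the median over members between -0.14 and 0.00 in stretch minus control, -0.07 and 0.05 in BIRB796 minus control, -0.10 and -0.01 in stretch with BIRB796 minus BIRB796, -0.09 and -0.01 in stretch with BIRB796 minus control, -0.04 and 0.12 in stretch with BIRB796 minus stretch, and -0.05 and 0.10 in the difference of stretch effects. With the replicate number as a block, 0 members were called in every comparison, while 289 and 1112 genes were called for BIRB796 and stretch with BIRB796 against control, whose numbers do not pair the arrays. These alternatives were chosen after seeing the data: session 2 left out, sessions 2 and 3 alone, and within session 3 the slide block, the array median and each array left out. Dim probes limit what can be said of Gins3, Pole2 and Pola1.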
